A study of Mus musculus with 12 samples.

Results

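The genes described here are those of the urea cycle and of hepatic glutamine breakdown: Nags, Cps1, Otc, Slc25a15, Slc25a13, Ass1, Asl and Gls2. They were chosen by name from this pathway, as the rows of the expression table that carry these gene names, and make up 8 of its 55385 features. Liver RNA was sequenced in 12 libraries, in 3 groups labelled as replicates 1 to 4 and each taken here as 1 mouse, to ask what loss of the mouse long noncoding RNA mGULL does to hepatic gene expression and what the human RNA hGULL does in its place. All mice were male C57BL/6 animals, 7 weeks old, and all received adenovirus at a total of 500000000 plaque-forming units, with livers taken 7 days later. Ad-Ctrl mice received a Lac control virus together with the empty pAdV5 virus, Ad-shmGULL mice received a virus that expresses a short hairpin RNA against mGULL together with pAdV5, and Ad-shmGULL+hGULL mice received the hairpin virus together with a virus that expresses hGULL. The sources differ on the injection route, which is given both as intravitreal and as retro-orbital. Every group carried adenovirus, and no group went without virus. The level of mGULL was not analysed here, so the RNA-Seq values offer no check of the knockdown. Values are TPM (transcripts per 1000000, scaled by gene length so that every library has the same total), which leaves sequencing depth unknown, and no detection limit is given.

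The urea cycle turns toxic ammonia into urea and runs at full length only in the liver, chiefly in the hepatocytes around the portal vein. Ammonia and bicarbonate enter in the mitochondrion as carbamoyl phosphate, which is joined to ornithine to make citrulline, and the remaining steps take place in the cytosol. Periportal hepatocytes also release ammonia from glutamine with a liver-type glutaminase, whereas a thin rim of pericentral hepatocytes makes glutamine from the ammonia that escapes.

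All 8 genes passed the filter of a mean of at least 1 TPM that left 16378 features for testing. Their mean over the 12 mice spanned a wide range, in the order Cps1 (2825 TPM), Ass1 (1551 TPM), Asl (358 TPM), Otc (228 TPM), Slc25a13 (214 TPM), Gls2 (188 TPM), Slc25a15 (167 TPM) and Nags (66.9 TPM). Among Otc, Slc25a13, Gls2 and Slc25a15, neighbours in that order did not differ beyond the spread between mice. Between the lowest and the highest mouse the level differed most for Gls2, 1.94-fold, and least for Slc25a13, 1.3-fold. In bulk liver, fewer cells that express a gene and less RNA per cell cannot be told apart.

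**Figure D1:**
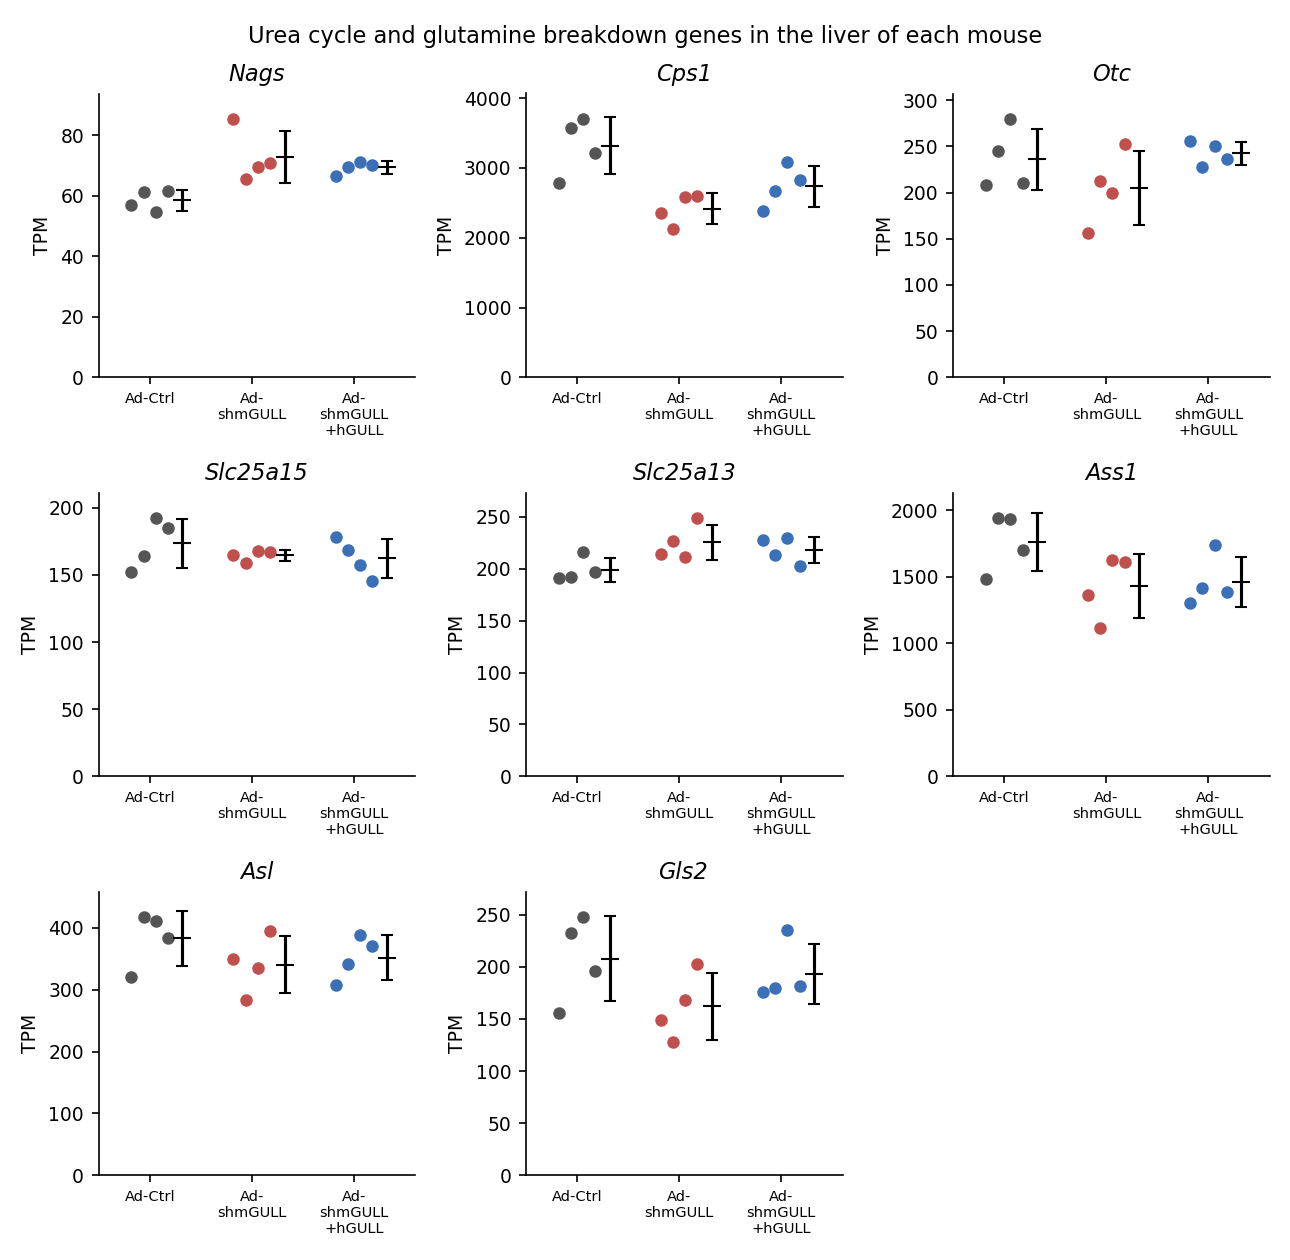
TPM of each gene in each mouse (points, 4 per group), with the group mean and SD beside them in black. Every Ad-shmGULL mouse lay below every Ad-Ctrl mouse for Cps1 and above every Ad-Ctrl mouse for Nags, and the groups overlapped for the other 6 genes in that comparison.

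In the comparison of Ad-shmGULL with Ad-Ctrl, which asks what knockdown does, 0 of the 8 genes had an adjusted p under 0.05 in limma, against 3.23% of all 16378 tested genes (529 genes). Likewise 0 of the 8 passed the threshold of the study's methods, which takes genes with an unadjusted P under 0.05 and a log2 difference above 0.5 or below -0.5, against 7.65% of all tested genes. With no regard to size, 3 of the 8 had an unadjusted P under 0.05, namely Nags, Cps1 and Slc25a13, against 3316 of all 16378 tested genes. Nags and Cps1 were the 2 genes whose mice did not overlap between the groups, against 8.99% of all tested genes. The fitted value was below 0 for 6 genes and above 0 for Nags and Slc25a13. The median log2 fold change of the 8 was -0.19, and that of all tested genes was 0.0867.

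Of all tested genes, 65.5% had a higher value in Ad-shmGULL than in Ad-Ctrl. The median of all genes came to 0.173 for Ad-shmGULL+hGULL against Ad-Ctrl and to 0.0933 for Ad-shmGULL+hGULL against Ad-shmGULL. The 20 most abundant genes took between 29.4 and 32.9% of all TPM in Ad-Ctrl mice, between 26.3 and 34.2% in Ad-shmGULL mice and between 24.6 and 26.6% in Ad-shmGULL+hGULL mice. Rescaled without the 20 highest genes, the median of all genes was 0.0656 for Ad-shmGULL against Ad-Ctrl. For Ad-shmGULL+hGULL it was then 0.0944 against Ad-Ctrl and 0.0362 against Ad-shmGULL. With the knockdown median of 0.0867 taken off, the knockdown difference was -0.54 for Cps1, -0.44 for Gls2, -0.40 for Ass1, -0.30 for Otc, -0.26 for Asl, -0.16 for Slc25a15, 0.09 for Slc25a13 and 0.22 for Nags on the log2 scale. That median ran from 0.0403 without Ad-shmGULL replicate 2 to 0.123 without Ad-shmGULL replicate 1. Under median-of-ratios scaling it was -0.00922.

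Nags makes N-acetylglutamate, the activator without which carbamoyl phosphate synthetase does not work. Its level was 57.0, 61.1, 54.5 and 61.6 TPM in Ad-Ctrl replicates 1 to 4. In Ad-shmGULL mice it was 85.3, 65.6, 69.5 and 70.9 TPM, and in Ad-shmGULL+hGULL mice 66.4, 69.6, 71.3 and 70.3 TPM. The lowest mouse of either hairpin group lay above the highest control mouse, and Ad-shmGULL replicate 1 stood well above its group. The log2 fold change of TPM + 1 was 0.31 ± 0.08 (SE) for Ad-shmGULL against Ad-Ctrl (adjusted p = 0.0662), a level 23.5% higher in 4 of 4 mice. Against Ad-Ctrl, Ad-shmGULL+hGULL differed by 0.24 ± 0.08 (adjusted p = 0.11), which is 0.07 above the median of all genes. The difference between the 2 hairpin groups was -0.06 (adjusted p = 0.786). After scaling by the median of ratios the values of Nags were 0.20 and 0.04 in these comparisons with Ad-Ctrl, and its groups then overlapped. RefSeq places a long noncoding gene, Gm11586, over 795 bases of Nags. Gm11586 was listed at a mean of 10.5 TPM in Ad-Ctrl, 10.9 TPM in Ad-shmGULL and 12.8 TPM in Ad-shmGULL+hGULL, and while the libraries were strand-specific, the strand setting of the counting is not given in the sources used here.

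The bases upstream of the start of Nags and Otc are shown because these were the windows with a match to the motif of C/EBP proteins, known regulators of urea cycle genes. RefSeq promoter windows in GRCm38.p6 were found for 5 of the 8 genes, with 6 windows in all, as Slc25a15 has a pair. None was found for Cps1, Asl and Gls2. The motif TTNNGNAA of C/EBP was searched on both strands in the 250 bases before the start, and its matches are in capitals. All of these bases of 1 Slc25a15 window, 131 of them for Slc25a13 and 75 for Otc lie inside the gene as annotated and are not printed. For Nags 47 of the 250 bases are printed and for Otc 88, those around the matches.
Nags, chr11:102145263-102145309, plus strand: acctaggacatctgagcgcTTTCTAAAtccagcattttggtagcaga
Otc, chrX:10252142-10252229, plus strand: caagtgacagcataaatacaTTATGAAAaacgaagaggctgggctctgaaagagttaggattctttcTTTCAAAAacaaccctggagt
The motif was in 2 of the 6 windows, against 36.8% of all 32851 windows of that length. The cyclic AMP response element TGACGTCA was in 0 of the 6, against 1.55% of all windows, and its shorter form TGACG, which it contains, was in 1, that of Slc25a13, where it lies inside the gene as annotated, against 17.8%. The glucocorticoid receptor motif TGTTCT was in 0 of the 6, against 16.1%, and the HNF4 motif CAAAGTCCA in 0, against 0.384%. Such matches describe letters in these windows only.

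Cps1 encodes carbamoyl phosphate synthetase, which fixes ammonia in the mitochondrial matrix and is the entry enzyme of the cycle. Ad-Ctrl replicates 1 to 4 had 2789.7, 3578, 3697 and 3210.2 TPM. The Ad-shmGULL mice had 2349, 2130.3, 2591 and 2595 TPM, and the Ad-shmGULL+hGULL mice 2376, 2674, 3080.2 and 2824 TPM. Every Ad-shmGULL mouse was below every control mouse, the nearest pair being 2595 and 2789.7 TPM, while the rescue mice ran from the level of the knockdown mice to that of the controls. Group means were 3319 ± 409 TPM (SD, n = 4), 2416 ± 223 TPM (SD, n = 4) and 2739 ± 294 TPM (SD, n = 4). The difference after knockdown was -0.45 ± 0.13 (log2, SE), or a level 0.73 times that of control (95% interval -0.73 to -0.18 on the log2 scale), with an adjusted p of 0.0681. Over the other settings tried, the adjusted p ran from 0.0316 to 0.192, and it was 0.046 when genes under a mean of 5 TPM were left out and 0.0316 without Ad-Ctrl replicate 1. Scaled by the median of ratios, Cps1 passed the threshold of the study's methods at -0.56, with an adjusted p of 0.087. Rescue against knockdown gave 0.18 ± 0.13 (adjusted p = 0.61), and rescue against control gave -0.27 ± 0.13 (adjusted p = 0.195).

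Otc, ornithine transcarbamylase, joins carbamoyl phosphate to ornithine in the matrix. Its control values were 209, 245, 279 and 210.5 TPM. Ad-shmGULL mice had 156, 212, 199.6 and 253 TPM, the widest spread of the 3 groups, and Ad-shmGULL+hGULL mice had 256, 228, 250.2 and 237 TPM. All groups overlapped, and the lowest mouse of the series was Ad-shmGULL replicate 1. The knockdown difference was -0.21 (95% interval -0.50 to 0.08), rescue against knockdown 0.26 (-0.03 to 0.55) and rescue against control 0.05 (-0.24 to 0.34), all on the log2 scale, with adjusted p of 0.415, 0.509 and 0.837. Without Ad-shmGULL replicate 1 the values of the first pair of comparisons were -0.09 and 0.14, and with array weights -0.06 and 0.14. The value for rescue against control turned to -0.15 with scaling by the median of ratios.

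Slc25a15, the ornithine carrier of the inner mitochondrial membrane, varied little: 152, 164, 192 and 185 TPM in Ad-Ctrl, 165, 159, 168 and 167 TPM in Ad-shmGULL, and 178, 168, 157 and 145 TPM in Ad-shmGULL+hGULL. The Ad-shmGULL mice lay inside the range of the controls. Slc25a13, citrin, exports aspartate from the mitochondrion for the step that Ass1 catalyses. It measured 190.8, 192, 216 and 197 TPM in Ad-Ctrl mice, 214, 227, 211 and 248 TPM in Ad-shmGULL mice, and 228, 214, 229 and 202 TPM in Ad-shmGULL+hGULL mice. A single control mouse, replicate 3, reached into the range of both hairpin groups. The log2 difference of Slc25a13 after knockdown was 0.18 ± 0.08 (SE), with an adjusted p of 0.215, and it lay 0.09 above the median of all genes. Against control, the rescue value of 0.13 was 0.04 below that median, and it was -0.07 with scaling by the median of ratios.

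Ass1 encodes argininosuccinate synthase, which joins citrulline and aspartate in the cytosol. Control mice had 1482, 1938, 1932 and 1703 TPM, Ad-shmGULL mice 1361, 1117, 1629 and 1607 TPM, and Ad-shmGULL+hGULL mice 1300.6, 1416, 1737 and 1386 TPM. Replicate 1 of the controls fell among the hairpin mice, whereas the remaining controls lay above all Ad-shmGULL mice. The knockdown difference was -0.31 ± 0.14 (log2, SE), with an adjusted p of 0.249, and rescue against control was -0.27 ± 0.14, with an adjusted p of 0.253. Between the hairpin groups the difference was 0.04 (95% interval -0.28 to 0.35), and its sign changed with the scaling.

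Asl, argininosuccinate lyase, releases arginine and fumarate. It ran at 321, 417, 410.3 and 383 TPM in Ad-Ctrl mice, 349, 284, 335 and 394 TPM in Ad-shmGULL mice and 307, 342, 389 and 370.1 TPM in Ad-shmGULL+hGULL mice. The 3 groups overlapped over most of their range. Log2 differences were -0.17 (95% interval -0.43 to 0.09) after knockdown and -0.12 (-0.38 to 0.14) for rescue against control, with adjusted p of 0.458 and 0.538.

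Gls2, the liver-type glutaminase, supplies ammonia to the cycle from glutamine. Ad-Ctrl mice had 155, 233, 247 and 196 TPM, and Ad-shmGULL mice 149, 128, 168 and 203 TPM. Ad-shmGULL+hGULL mice had 175, 179.7, 235 and 181 TPM. A low control mouse, replicate 1, and a high knockdown mouse, replicate 4, made the first pair of groups overlap, and rescue replicate 3 stood apart from a tight trio. Group means were 208 ± 41.1 TPM (SD, n = 4), 162 ± 31.9 TPM (SD, n = 4) and 193 ± 28.4 TPM (SD, n = 4). The log2 difference was -0.36 ± 0.17 (SE) after knockdown (adjusted p = 0.255), 0.26 ± 0.17 for rescue against knockdown (adjusted p = 0.575) and -0.10 ± 0.17 for rescue against control (adjusted p = 0.74). Gls2 overlaps 97 bases of Spryd4, which was listed at a mean of 53.4 TPM in Ad-Ctrl, 55.4 TPM in Ad-shmGULL and 58.6 TPM in Ad-shmGULL+hGULL.

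**Figure D2:**
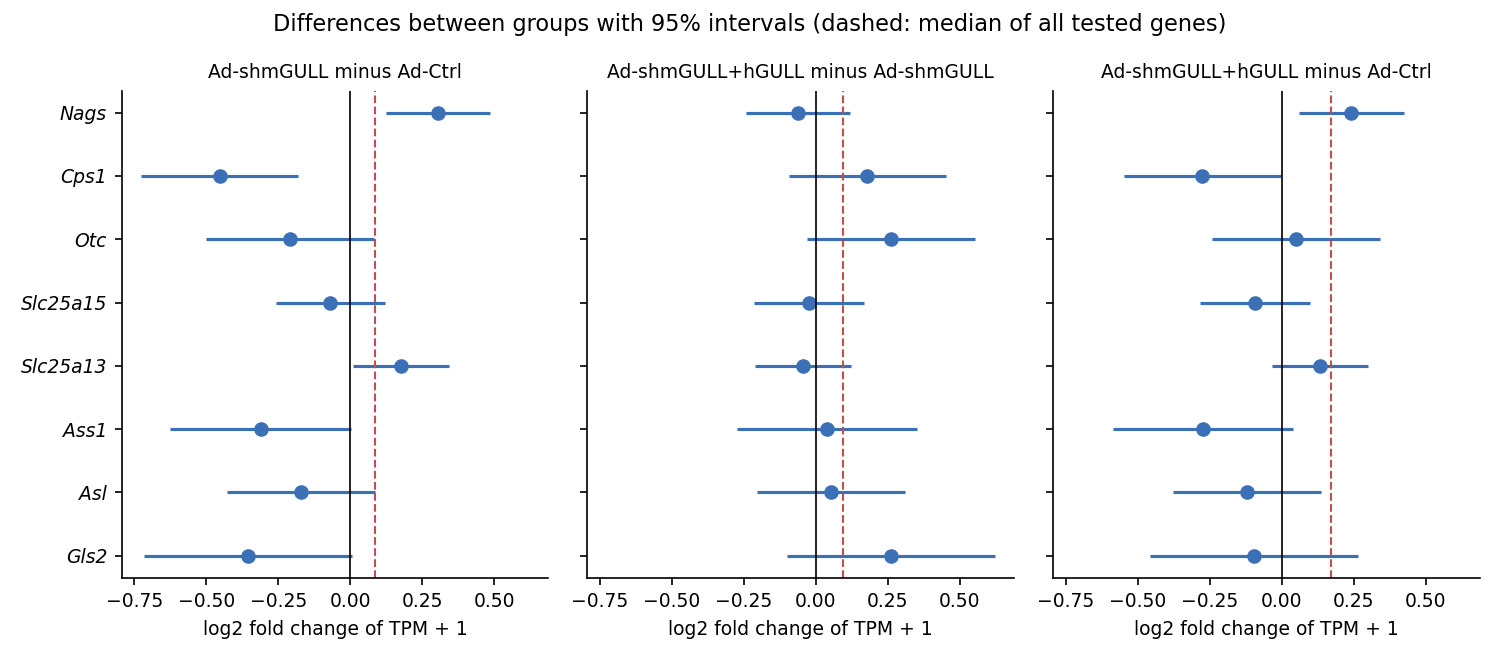
Log2 fold change of TPM + 1 for each gene in the 3 comparisons (points) with its 95% interval from the limma model (lines), and the median of all tested genes as a dashed line. In the knockdown panel, the intervals of Cps1 (-0.73 to -0.18), Nags (0.12 to 0.49) and Slc25a13 (0.01 to 0.34) leave out 0.

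Rescue was compared with knockdown to ask what hGULL adds when mGULL is low. In limma, 0 of the 8 genes had an adjusted p under 0.05 in this comparison, against 0% of all tested genes, where 1757 genes had an unadjusted P under 0.05. At the threshold of the study's methods the count was 0 of 8, against 3% of all tested genes. In 0 of the 8 genes did the groups lie apart, against 6.38% of all tested genes. The median log2 fold change of the 8 was 0.0448, with 5 above and 3 below 0, and that of all tested genes was 0.0933. The largest values were those of Otc and Gls2, both 0.26.

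Rescue was also compared with control. Here 0 of the 8 genes had an adjusted p under 0.05 in limma, against 2.15% of all tested genes, and 2 had an unadjusted P under 0.05, Nags and Cps1, against 4149 of all 16378. The threshold of the study's methods was passed by 0 of 8, against 7.49% of all tested genes. Nags, higher, was the 1 gene whose groups lay apart, against 22.3% of all tested genes. The median of the 8 was -0.0942, with 5 genes below 0, and that of all tested genes was 0.173. The 3 comparisons share their mice, so a gene's values in them are not independent.

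Within a group, the same mouse was often low for several of the genes. Ad-Ctrl replicate 1 was the lowest control for 7 of the 8 genes. Ad-shmGULL replicate 2 was the lowest of its group for 6 genes, Ad-shmGULL+hGULL replicate 1 for 5, and Ad-shmGULL+hGULL replicate 3 was the highest of its group for 6. Summed over the 8 genes, the level was 5356, 6828, 7028 and 6146 TPM in Ad-Ctrl mice, 4830, 4323, 5370 and 5538 TPM in Ad-shmGULL mice, and 4887, 5290, 6149 and 5416 TPM in Ad-shmGULL+hGULL mice. These sums are 0.634, 0.502 and 0.544% of all TPM on average. Ad-Ctrl replicate 1 lay inside the range of the knockdown mice and the remaining controls above it, and the rescue mice overlapped both groups. Scaled by the median of ratios, the control sums ran down to 5287 and the knockdown sums up to 5520, and the groups overlapped likewise. The sum is led by Cps1 and Ass1 and was given no test.

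Ratios of gene pairs within a library do not depend on how the library was scaled. Glul encodes glutamine synthetase, the pericentral enzyme that works against Gls2, and it was listed at 691, 804, 784 and 924 TPM in Ad-Ctrl, 725, 714, 896 and 907 TPM in Ad-shmGULL, and 745, 657, 709 and 816 TPM in Ad-shmGULL+hGULL. There were 4.04, 4.45, 4.72 and 3.48 Cps1 TPM per Glul TPM in Ad-Ctrl mice, against 3.24, 2.98, 2.89 and 2.86 in Ad-shmGULL mice and 3.19, 4.07, 4.34 and 3.46 in Ad-shmGULL+hGULL mice. All knockdown mice were below all controls. Their mean log2 ratio was 0.722 times that of control when written as a fold, a difference of -0.47 (exact two-sided permutation test, p = 0.0286, the smallest that 4 mice against 4 allow; adjusted over 12 tests, p = 0.171). Rescue against knockdown differed by 0.32 in this ratio (exact permutation p = 0.0571, adjusted p = 0.171) and rescue against control by -0.15 (exact permutation p = 0.286, adjusted p = 0.539). For Gls2 to Glul the ratio was 0.225, 0.289, 0.316 and 0.212 in control mice, 0.206, 0.179, 0.188 and 0.224 in knockdown mice and 0.236, 0.274, 0.332 and 0.222 in rescue mice. The knockdown mice overlapped the others by 1 mouse, replicate 4. The log2 difference was -0.37 after knockdown and 0.40 for rescue against knockdown (exact permutation p = 0.0571 for each, adjusted p = 0.171), and 0.03 for rescue against control (exact permutation p = 0.886, adjusted p = 0.886).

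**Figure D3:**
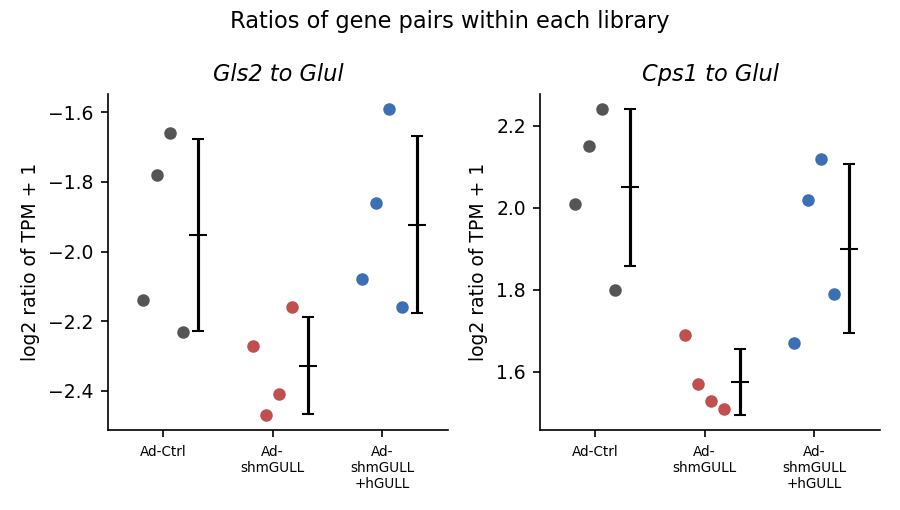
Log2 ratio of TPM + 1 of each pair of genes in each mouse (points), with group mean and SD in black, on axes that do not start at 0. The Cps1 to Glul ratio lay between 1.51 and 1.69 in the Ad-shmGULL mice, between 1.67 and 2.12 in the Ad-shmGULL+hGULL mice and at 1.8 or more in the Ad-Ctrl mice.

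Paralogs of the mitochondrial carriers were far less abundant in these livers. Slc25a12, aralar, had group means of 11.2, 11.7 and 12.5 TPM, with overlapping groups. Slc25a2, a second ornithine carrier, had 1.25, 1.82, 1.58 and 1.32 TPM in Ad-Ctrl mice, 1.05, 0.657, 0.598 and 0.552 TPM in Ad-shmGULL mice and 0.848, 1.02, 0.836 and 0.612 TPM in Ad-shmGULL+hGULL mice. Both hairpin groups lay below control throughout. Its log2 difference of TPM + 1 was -0.54 after knockdown (adjusted p = 0.0778) and passed the threshold of the study's methods, at a level so low that the added 1 draws the fold toward 0. Only its Ad-Ctrl mean (1.49 TPM, against 0.715 and 0.828 TPM) was above 1 TPM. Slc25a2 thus passed the filter through the group where it was high, so no conclusion is drawn from this call.

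Of 14 tested genes that feed the cycle or share its intermediates, 0 had an adjusted p under 0.05 in limma in any of the 3 comparisons. After knockdown 2 of the 14 passed the threshold of the study's methods, 1 upward and 1 downward, against 7.65% of all tested genes. Aqp8, an aquaporin of the hepatocyte, was the higher one, with 141, 56.4, 57.7 and 64.9 TPM in Ad-Ctrl and 96.2, 158, 177 and 86.0 TPM in Ad-shmGULL (log2 difference 0.73, adjusted p = 0.196). It also passed that threshold in rescue against control (0.74, adjusted p = 0.158), but not with scaling by the median of ratios, where its unadjusted P was above 0.05. Got1, the cytosolic aspartate aminotransferase, was the lower one, with 342, 381, 481 and 517 TPM against 311, 213, 262 and 364 TPM (-0.59, adjusted p = 0.0978). Groups overlapped for both. After knockdown groups lay apart for 1 of the 14, against 8.99% of all tested genes. This was Mdh2, mitochondrial malate dehydrogenase, which was higher (0.39, adjusted p = 0.0503). In rescue against control they lay apart for 3 of the 14, all higher, against 22.3% of all tested genes. Mdh2 was among these (0.38, adjusted p = 0.0572). The median of the list was 0.035 after knockdown, near that of all genes.

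Among 10 tested transporters of glutamine and cationic amino acids, 0 had an adjusted p under 0.05 in limma after knockdown, against 3.23% of all tested genes. At the threshold of the study's methods 1 passed, against 7.65% of all tested genes, namely Slc7a2. This carrier of arginine, lysine and ornithine had 292, 416, 558 and 439 TPM in Ad-Ctrl mice, 271, 225, 237 and 349.9 TPM in Ad-shmGULL mice and 290.2, 295, 399 and 302 TPM in Ad-shmGULL+hGULL mice. Ad-Ctrl replicate 1 was again the low control and the only one inside the knockdown range. The log2 difference of Slc7a2 was -0.64 (adjusted p = 0.0849), and that of Slc38a2, a glutamine and alanine carrier, -0.47 (adjusted p = 0.0679). With scaling by the median of ratios Slc38a2 was at -0.58 (adjusted p = 0.0556) and passed that threshold too. In rescue against control 1 transporter passed it, upward, Slc43a1 (0.70, adjusted p = 0.0933), against 7.49% of all tested genes. The list median was -0.0925 after knockdown, 0.165 for rescue against knockdown and 0.0338 for rescue against control. Of 11 genes of glutamine synthesis and use, 10 had values above 0 after knockdown, against 65.5% of all tested genes. The median of this list was 0.138, and that of all tested genes was 0.0867. In that comparison 0 of the 11 passed either threshold, against 3.23 and 7.65% of all tested genes. The largest values were -0.87 for Asns, asparagine synthetase, whose controls ran from 4.19 to 26.5 TPM, and 0.40 for Ctps, CTP synthase. Ctps passed the threshold of the study's methods in rescue against control (0.61, adjusted p = 0.0976), but not with scaling by the median of ratios (0.42). Of 17 genes of ornithine, arginine and polyamine metabolism, 0 passed either threshold in any comparison, with Oat at -0.47 and Nos3 at 0.31 as the largest values after knockdown.

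The list of 16 reported transcriptional regulators of urea cycle genes held 1 gene with an adjusted p under 0.05. It was called in rescue against control, where the share over all tested genes was 2.15%. This gene was Foxa1, a forkhead factor of hepatocytes. Foxa1 rose from 20.2, 15.9, 21.9 and 20.1 TPM in Ad-Ctrl to 28.7, 30.1, 25.8 and 28.3 TPM in Ad-shmGULL+hGULL, with 19.9, 25.5, 23.7 and 25.5 TPM in Ad-shmGULL. Its log2 difference for rescue against control was 0.52 ± 0.11 (SE), higher in 4 of 4 mice (limma, adjusted p = 0.0414), or 0.34 above the median of all genes. With scaling by the median of ratios it was 0.32, with an adjusted p of 0.134. In the knockdown comparison 0 of the 16 passed either threshold, and the list median was -0.0354.

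Because the urea cycle is a periportal function, markers of the liver zones were set beside it. Of 10 periportal markers outside the members, 8 had values below 0 after knockdown, with a median of -0.543, and 5 passed the threshold of the study's methods, all downward, against 7.65% of all tested genes. For rescue against knockdown 9 were above 0, with a median of 0.257, and 1 passed it, upward, against 3% of all tested genes. For rescue against control 6 were below 0, with a median of -0.106, and 2 passed it, both downward, against 7.49%. Igf1, a growth factor in this list that the liver releases, fell from 169.8, 161, 209 and 168 TPM in Ad-Ctrl to 72.1, 82.0, 124 and 108 TPM in Ad-shmGULL, with 116, 141, 149.98 and 139.6 TPM in Ad-shmGULL+hGULL. Knockdown mice lay below controls without overlap (log2 difference -0.89, limma, adjusted p = 0.0139). It was also the marker past the threshold in rescue against knockdown (0.52, adjusted p = 0.363), though at 0.43 with scaling by the median of ratios, short of it. Hsd17b13, a lipid droplet enzyme, rose in rescue against control (0.47, adjusted p = 0.0426, higher in 4 of 4 mice), and its value after knockdown was 0.16. With scaling by the median of ratios the rescue value was 0.26, with an adjusted p of 0.205. The summed periportal level was 7338 ± 1070 TPM (SD, n = 4) in Ad-Ctrl, 5485 ± 970 TPM (SD, n = 4) in Ad-shmGULL and 6043 ± 663 TPM (SD, n = 4) in Ad-shmGULL+hGULL, with Pck1 as the most abundant gene. Of 14 pericentral markers, Glul among them, 9 were below 0 after knockdown, with a median of -0.101. A single one was past the threshold of the study's methods, against 7.65% of all tested genes. It was Tbx3 (0.52, adjusted p = 0.0562), followed in size by Slc13a3 (-0.51, adjusted p = 0.293). Tbx3 was at 0.41 with scaling by the median of ratios, short of that threshold, and had an adjusted p of 0.0411 with a filter at 5 TPM. For rescue against knockdown 8 of the 14 were above 0, with a median of 0.00989. For rescue against control 12 were below 0, with a median of -0.126. In these comparisons 0 passed the threshold of the study's methods, against 3 and 7.49% of all tested genes. The summed pericentral level was 10370 ± 1350 TPM (SD, n = 4), 9608 ± 1880 TPM (SD, n = 4) and 9313 ± 1220 TPM (SD, n = 4), led by Cyp2e1. The part of either zone in the values of the urea cycle genes was not tested.

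**Figure D4:**
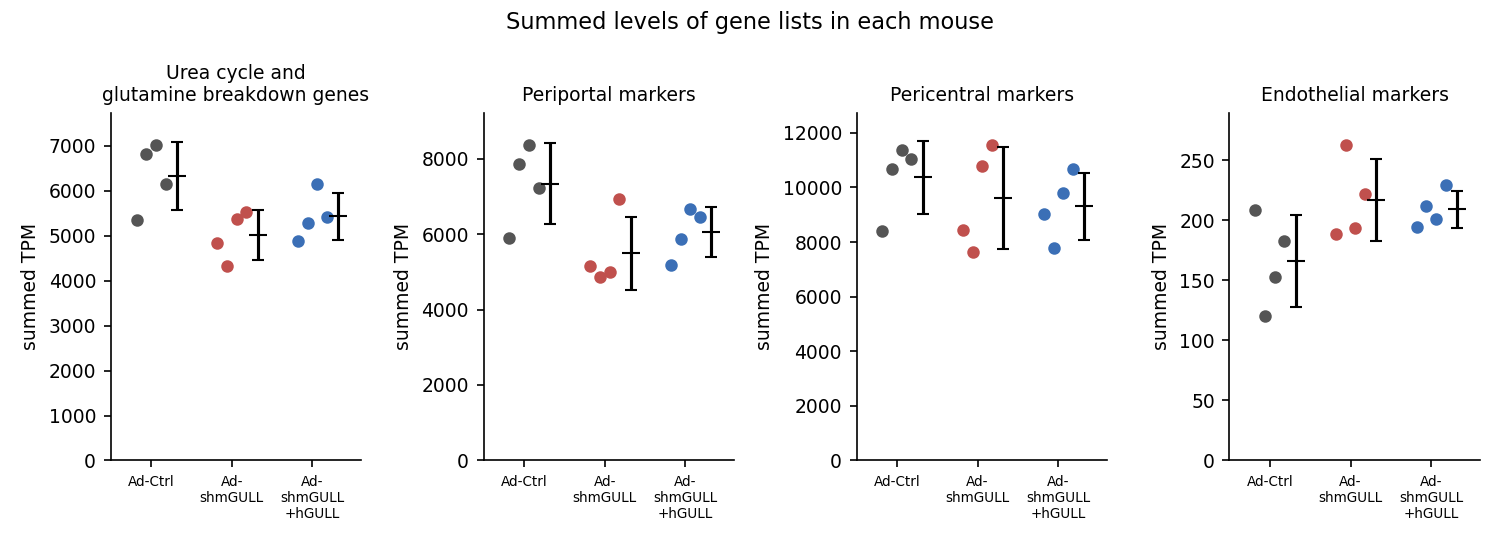
Summed TPM of the 8 genes, of 10 periportal, 14 pericentral and 7 endothelial markers in each mouse (points), with group mean and SD in black. Ad-Ctrl replicate 1 had the lowest control sum in the first 3 panels and the highest in the last.

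Markers of hepatocytes were abundant in every mouse, with Alb at a mean of 59560 TPM in Ad-Ctrl. Of 11 hepatocyte markers, 8 were below 0 after knockdown, with a median of -0.277, and 3 passed the threshold of the study's methods, all downward, against 7.65% of all tested genes, with Tat at -0.80 and Apoa1 at -0.60 as the largest values. In rescue against control 10 were below 0, with a median of -0.264, and 2 passed it, again Tat (-0.81) and Apoa1 (-0.60), against 7.49%. In rescue against knockdown 0 passed it, and groups lay apart for 3, all lower, against 6.38% of all tested genes. The 7 endothelial markers were all above 0 after knockdown, with a median of 0.388, and Stab2 rose (34.9 to 50.9 TPM on average, log2 difference 0.54, limma, adjusted p = 0.0476, higher in 4 of 4 mice). Their summed level was 166 ± 38.2 TPM (SD, n = 4) in Ad-Ctrl, 217 ± 34.0 TPM (SD, n = 4) in Ad-shmGULL and 209 ± 15.5 TPM (SD, n = 4) in Ad-shmGULL+hGULL. Kupffer cell and macrophage markers had a median of -0.0407 over 8 genes after knockdown, stellate cell markers 0.281 over 7, cholangiocyte markers -0.0108 over 4, T and NK cell markers -0.0674 over 7, and B cell and neutrophil markers 0.296 over 3, each with 0 genes at an adjusted p under 0.05. Their largest values after knockdown were those of Marco (-1.04) and Timd4 (-0.74), of Col1a1 (0.71) and Col3a1 (0.56), of Sox9 (0.64) and Krt19 (-0.08), of Gzmb (-0.61) and Ncr1 (-0.40), and of Cd79a (0.38) and S100a8 (0.30). Of these, Marco (adjusted p = 0.164) and Sox9 (adjusted p = 0.159) passed the threshold of the study's methods, against 7.65% of all tested genes. Values were above 0 for 3 of the 8 Kupffer cell and macrophage markers. Ncr1 passed the filter through Ad-Ctrl, the only group with a mean above 1 TPM (1.48 TPM, against 0.901 and 0.862 TPM). The summed level in Ad-Ctrl, with the most abundant gene, was 589 TPM (Cd5l), 129 TPM (Dcn), 83.5 TPM (Spp1), 36.8 TPM (Nkg7) and 160.3 TPM (S100a9) for these lists, and in Ad-shmGULL 581, 155, 92.4, 31.8 and 197 TPM. These sums also take in genes too low to be tested, 1 for cholangiocytes and 2 for B cells and neutrophils. For rescue against knockdown, B cell and neutrophil markers had a median of -0.784 over 3 genes. S100a8 (-0.78, adjusted p = 0.421) and S100a9 (-0.84, adjusted p = 0.404) were past the threshold of the study's methods downward, against 3% of all tested genes. Of the 7 T and NK cell markers, with a median of 0.167 and 2 below 0, 1 was past it upward, Gzmb (1.03, adjusted p = 0.411). S100a9, like Mdh2 and Slc43a1, was added here after its values were seen. None of the markers was listed at 0 in all mice. The part of these cell types in the values of the urea cycle genes was not tested.

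For each gene the tested genes outside the pathway with the nearest profile were taken, by the root mean square difference of centred log2(TPM + 1) values over the 12 mice. Cps1 was nearest to Itih1 (0.0913), Gpld1 (0.0928) and Serpina3k (0.0993), and its nearest fellow member was Ass1 (0.0998). Ass1 was nearest to Serpina1d (0.0811), Itih1 (0.0924) and Gpld1 (0.0935), so that Itih1 and Gpld1, both secreted by hepatocytes, were near to both. Gls2 was nearest to Cyp4f15 (0.099), with Ass1 as the nearest member (0.13) ahead of Zcchc24 and Rdh7 (0.136 each). Asl was nearest to Vtn (0.0668), Gne (0.079) and Zcchc24 (0.0813), and Otc to Zfp385b (0.0685), Elovl2 (0.0793) and Prkd3 (0.0798). Nags was nearest to Mepce (0.061), Zfp830 (0.0633) and Phb2 (0.0697), Slc25a13 to Pitpnb (0.0576), Pard3 (0.0593) and Ndst1 (0.06), and Slc25a15 to Mlh3 (0.0794), Clcn4 (0.0895) and Sdc1 (0.091). Genes that vary little lie near to many others by this measure: the SD over the 12 mice was 0.108 for Slc25a15 and 0.273 for Gls2.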

How the data were processed

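12 liver RNA-Seq libraries were analysed, grouped by the sample titles. The authors trimmed reads with fastp 0.23.2, checked them with FastQC 0.11.8, aligned them with HISAT2 2.2.1.0 to GRCm38.p6 with GENCODE VM24 genes, and deposited TPM values. The submitters' notes also name featureCounts of Subread 2.0. Libraries were strand-specific. The gene lengths behind the TPM and the strand setting of the counting are not given in the sources used here. Each library sums to 1000000 TPM, so depth is unknown. All 37 mitochondrial features are listed at 0. No 2 columns were identical. Nothing besides the sample labels shows that the libraries of a group came from separate animals; each is taken here as 1 mouse, and the p-values may measure only the spread between these samples, which may be technical.

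log2(TPM + 1) values of the 16378 features with a mean of at least 1 TPM were fitted in R 4.3.3 with limma 3.58.1, as 1 model with 3 groups, no covariate, moderated variances and a mean-variance trend, two-sided, with Benjamini-Hochberg adjustment over all tested features within each comparison. Fold changes are on the log2(TPM + 1) scale. Ratios were tested by exact two-sided permutation of 4 mice against 4, adjusted over 12 tests, of which 6 are given. The fit was tested on simulated data. Motifs were searched in RefSeq promoter windows of GRCm38.p6 with Python 3.11.15. Plots use matplotlib 3.10.9.

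The members and lists were chosen with earlier results of these data known, so counts over them are descriptions. Named were the members, 2 paralogs, the genes of each other list with an adjusted p under 0.05 (at most 5) or else the 2 with the largest knockdown difference, and for each member the 3 nearest genes. The alternatives tried were a smaller pseudocount (0.1), testing without a filter, a filter at 5 TPM, median-of-ratios scaling, quantile normalization, rescaling without the 20 highest genes or to protein-coding genes, array weights, a fit without the trend, a fit to the compared groups alone, a replicate block and leaving out each mouse. No sample was left out. Some genes and ratios of the design are not reported here.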

Additional observations from a re-analysis of the deposited data

Results flagged for a closer look

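Gls2 in Ad-shmGULL+hGULL replicate 3 (235.4 TPM) was far from the other 3 mice of its group, which lay between 175 and 181 TPM. The gap to the nearest of them was 0.904 of the range of the group, above Dixon's 95% critical value for 4 samples. It was the single such value among 33 groups of 4 examined (the 8 genes, the 2 ratios and the sum of the 8 genes in 3 groups), and chance gives about 1 in 20. Without that mouse the log2 difference of Gls2 was -0.19 for rescue against control and 0.16 for rescue against knockdown.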

How the results depend on the processing

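Over the other settings and with each mouse left out, 182 of 184 values of single genes of the pathway kept their direction and side of the threshold for knockdown against control, 171 of 184 for rescue against knockdown and 175 of 184 for rescue against control. Depth is unknown, so what it limits was not analysed. Where direction turned the cause was not tested.

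With median-of-ratios scaling the values that turned were, for rescue against knockdown, Ass1 -0.0557, Asl -0.0431, Aqp8 -0.0888, Oat -0.0389 and Apoa1 -0.0935; for rescue against control, Otc -0.154, Slc25a13 -0.0713, Slc25a12 -0.0473 and Cd79a -0.0484; and for knockdown against control, Slc25a12 -0.0603. With quantile normalization Otc turned to -0.0767 (rescue against control) and Asl to -0.0172 (rescue against knockdown). Rescaled without the 20 highest genes Otc turned to -0.044 (rescue against control), and Ass1 to -0.0289 and Asl to -0.0163 (both rescue against knockdown). With array weights Ass1 turned to -0.0176 and Asl to -0.00749 for rescue against knockdown.

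With single mice left out, rescue against knockdown ranged from -0.11 to 0.0148 for Nags, -0.0741 to 0.107 for Ass1, -0.0332 to 0.125 for Asl, -0.0704 to 0.028 for Slc25a15 and -0.0752 to 0.00319 for Slc25a13, and rescue against control from -0.00504 to 0.134 for Otc. The log2 ratio of Gls2 to Glul ranged from -0.081 to 0.13 for rescue against control.

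Of the 8, Cps1 alone had an adjusted p under 0.05 for knockdown against control at 5 TPM (all genes 645 of 10948). The same held without Ad-Ctrl replicate 1 (946 of 16378). It passed the study's threshold without that mouse (1646) and with median-of-ratios scaling (1179). Both member counts ran from 0 to 1 with a mouse left out. Nags alone had an adjusted p under 0.05 for rescue against control with only the compared groups (0.0407, all genes 1693). So it did with array weights (0.0208, 3184) and without Ad-shmGULL replicate 1 (0.0463, 857), and this member count ranged likewise. Of all genes called there, 96.1 to 98% were higher. Only Cps1 groups lay apart after knockdown with median-of-ratios scaling, quantile normalization and rescaling without the 20 highest genes (all genes 9.48, 9.67 and 9.37%). For rescue against control the count was 0 there (11.6, 11.6 and 14.6%). With a mouse left out it was 2 to 3 after knockdown (8.99 to 17.9%). For rescue against control it was 1 to 2 (22.3 to 36.7%), and for rescue against knockdown 0 to 2 (6.38 to 19.6%). Against control, Slc25a13 was added in both without Ad-Ctrl replicate 3, and Ass1 and Cps1 in turn without Ad-Ctrl replicate 1. For rescue against control Ass1 was added without Ad-shmGULL+hGULL replicate 3. For rescue against knockdown it was 2 (Gls2, Otc) without Ad-shmGULL replicate 4 (10%) and 1 (Cps1) without Ad-shmGULL+hGULL replicate 1 (8.22%).

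Over all genes, the 529 with an adjusted p under 0.05 for knockdown against control became 236 with no filter, 33 with only the compared groups and 344 with no trend, and 165 to 1057 with a mouse left out. The 352 for rescue against control became 9 with no filter, 568 at 5 TPM, 16 with protein-coding genes and 35 with no trend. They became 11 with median-of-ratios scaling, quantile normalization or rescaling without the 20 highest genes, and 3 to 1068 with a mouse left out. At the study's threshold the 1253, 492 and 1226 genes became 765, 242 and 708 at 5 TPM. The last became 721 with median-of-ratios scaling and 701 with quantile normalization. Of the calls at adjusted p for knockdown against control, 75.4% were higher, against 48.6% with median-of-ratios scaling and 54.1% with quantile normalization. At the study's threshold these shares were 69.9, 51.6 and 52.1%, and for rescue against control 91.4, 66.7 and 62.8%. Of 180 counts over the other lists, 26 moved by over 1.5 times.

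With a replicate block 0 members were called, and the counts over all genes went from 529 to 418 and from 352 to 71. The replicate numbers do not pair the mice: same-numbered mice correlated from -0.244 to 0.154 in deviations from group means.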
